A study of Mus musculus with 10 samples.

Results

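The annexins are a family of calcium-dependent membrane-binding proteins, and 8 of their genes (Anxa1, Anxa2, Anxa3, Anxa4, Anxa5, Anxa6, Anxa7 and Anxa11) were followed here by symbol through the count files and the deposited tables of a motor neuron RNA-sequencing study. The count files hold 51912 genes, 12 of them annexins. Of the 8 followed, 5 appear in the deposited tables, which list 18754 features, and the same 5 (Anxa2, Anxa4, Anxa5, Anxa6 and Anxa7) had enough counts to be tested. They were chosen by their symbols after genotype differences measured in these libraries, that of Anxa4 among them, were known. The study compared lumbar spinal motor neurons of 5 HSA-NRTN transgenic mice with those of 5 wild-type littermates, and each genotype had 3 females and 2 males. Each library is 1 mouse, and holds a pool of about 50 cells cut by laser from frozen sections, limited to cells with a visible nucleolus and an area above 200 µm2. In HSA-NRTN mice the human skeletal actin promoter drives expression of neurturin, a GDNF-related growth factor, in muscle. The transgene is thus expressed outside the captured cells, and neuronal Nrtn checks no label. The age of the mice is not given in the sources used here.

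An annexin folds into a core of repeats that hold calcium ions between the protein and the acidic phospholipids of a membrane, so that it attaches when calcium rises and lets go when calcium falls. The variable N-terminus ahead of the core sets the partners: annexin A2 binds S100A10, annexins A7 and A11 bind penta-EF-hand proteins, and annexin A6 carries a duplicated core. In neurons and other cells annexins are known from membrane repair, vesicle traffic, the cortical cytoskeleton and, for annexin A11, the tethering of RNA granules to lysosomes.

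The calcium-binding loop of the core is the feature that the members share in sequence. Its glycine, any residue, glycine, threonine stretch is written by codons of the form GGNNNNGGNACN. The first in-frame match on the coding strand of each member is shown as an example of this likeness. First matches start at codon 28 in Anxa5, 107 in Anxa6 and 129 in Anxa1, and need not lie in the same repeat of the core. Capitals mark the 12 bases of the motif, with 12 bases of coding sequence on each side (5′ to 3′, GRCm38, GENCODE M21, longest complete coding transcript).
Anxa1: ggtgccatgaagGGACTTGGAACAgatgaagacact
Anxa2: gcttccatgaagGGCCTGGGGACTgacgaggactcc
Anxa3: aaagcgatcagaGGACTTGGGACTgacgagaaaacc
Anxa4: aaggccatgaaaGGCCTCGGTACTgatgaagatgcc
Anxa5: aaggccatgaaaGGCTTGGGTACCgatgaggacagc
Anxa6: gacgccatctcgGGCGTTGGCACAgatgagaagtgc
Anxa7: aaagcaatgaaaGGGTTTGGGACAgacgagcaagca
Anxa11: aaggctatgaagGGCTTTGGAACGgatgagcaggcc

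All 8 coding sequences held the motif at least 2 times, 24 matches in all. Anxa1 and Anxa2 had 2, Anxa6 with its duplicated core had 5, and the other 5 members had 3 each. Among 21556 coding genes, 13.3% held at least 1 in-frame match, 2.02% at least 2 and 0.422% at least 3. Among the 8211 genes whose coding length lies in the range of the 8 annexins (957 to 2019 bases), the shares were 13.1%, 1.39% and 0.183%. A match is a description of the letters and not a measurement of calcium binding. The shared loop did not extend to reads: no run of 50 exonic bases was common to any pair among the 8 genes.

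Levels are given in CPM, the count of a gene relative to the total of its library after TMM scaling, and summarised as mean ± SD. Gene counts ran from 1875971 in HSA-NRTN 2 to 6641695 in HSA-NRTN 4, and 14090 to 19675 genes had at least 1 count. All 6 motor neuron markers (Chat, Slc18a3, Slc5a7, Isl1, Mnx1 and Prph) were detected, with a summed level of 2817 to 4183 CPM in HSA-NRTN and 2139 to 3597 CPM in wild-type libraries. Markers of other cells were detected in unequal amounts. The summed level of 6 astrocyte markers ran from 46.4 to 748 CPM in HSA-NRTN and from 50.7 to 295 CPM in wild-type libraries, and that of 6 oligodendrocyte markers from 270 to 1419 and from 201 to 641 CPM, with HSA-NRTN 2 highest for both. Most of the highest astrocyte sum came from Slc1a2 (up to 665 CPM), and the next highest astrocyte marker, Gja1, reached 52.1 CPM. In a pool, fewer cells of a type and less RNA per cell cannot be told apart.

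Anxa6 had the highest level of the family when counts were divided by the length of all exons. It reached 241.6 ± 61.3 CPM per kb over the 10 libraries, followed by Anxa5 at 153 ± 72.7, Anxa2 at 102 ± 47.3, Anxa7 at 31.6 ± 5.29 and Anxa4 at 22.8 ± 14.8 CPM per kb. On this scale Anxa6 stood above 98.4% of the 11613 tested genes with a length, Anxa5 above 97.3%, Anxa2 above 95.8%, Anxa7 above 86.5% and Anxa4 above 82.3%. Only 1 pair of neighbours in this order had ranges that did not overlap, Anxa2 over Anxa7 in 10 of 10 libraries. Anxa6 lay above Anxa5 in 9 of 10 libraries, Anxa5 above Anxa2 in 10 of 10 and Anxa7 above Anxa4 in 7 of 10. The exceptions in that last pair were HSA-NRTN 1, 2 and 4, and within HSA-NRTN libraries the means were 33.3 ± 13.2 CPM per kb for Anxa4 and 32.9 ± 4.34 for Anxa7, against 12.2 ± 6.52 and 30.3 ± 6.30 in wild-type libraries (n = 5 each). With the length of the longest transcript, Anxa2 (167 ± 77.4 CPM per kb) and Anxa5 (157 ± 74.6) changed places, with Anxa2 above Anxa5 in 6 of 10 libraries. Their order is therefore set by the length used.

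**Figure D1:**
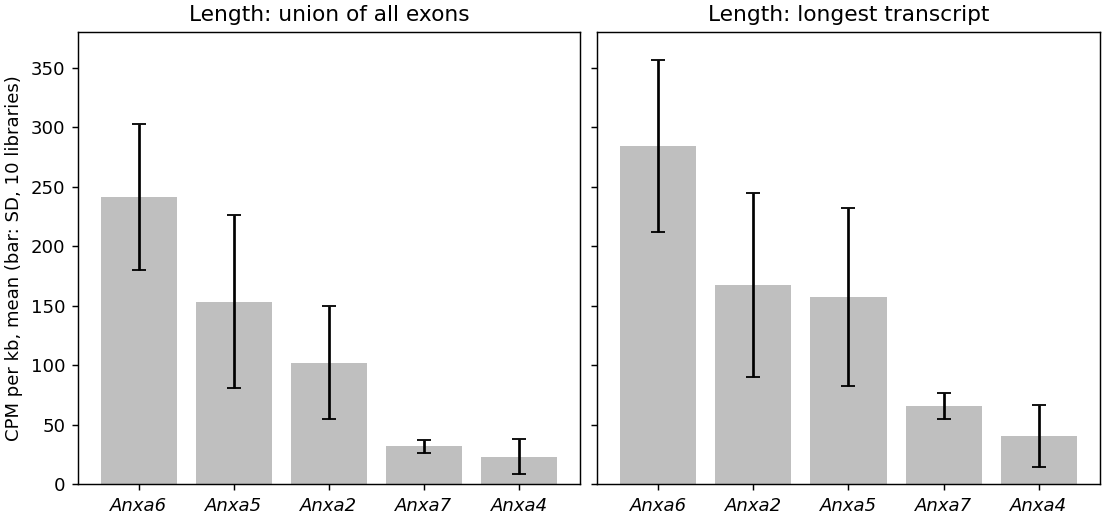
Mean CPM per kb of the 5 tested annexins over 10 libraries, with bars for the SD, divided by the length of all exons (left) or of the longest transcript (right). Anxa6 leads on both scales, at 241.6 and 284 CPM per kb, while Anxa2 and Anxa5 trade places.

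The 8 genes were named with results of the genotype comparison in view, so the genotype values below are a description with no test, and nothing is supported by them. HSA-NRTN and wild-type libraries were described for all tested genes by the edgeR quasi-likelihood fit, as log2 fold changes with standard errors. At an adjusted p under 0.05 this fit called 1 of 11630 genes, 0.0086% of those tested, and 0 of the 5 annexins. Of the 5 fold changes 4 were positive with a median of 0.54, while over all 11630 genes 5648 were positive and 5982 negative with a median of -0.015.

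Anxa4 is an annexin known from epithelia and secretory cells, where it binds membranes and restrains chloride conductance (ENSMUSG00000029994, chromosome 6, 86736840 to 86793584, minus strand). Its level in HSA-NRTN replicates 1 to 5 was 187, 162, 65.9, 228 and 131 CPM. In wild-type replicates 1 to 5 it was 37.0, 52.4, 48.8, 110 and 36.7 CPM. Of the 5 HSA-NRTN libraries 4 lay above every wild-type library, and HSA-NRTN 3 lay below wild-type 4, so the groups overlapped through that pair. Means were 154.9 ± 61.2 against 56.9 ± 30.3 CPM (n = 5 each), a ratio of 2.72, and the fitted log2 fold change was 1.44 (SE 0.37). It stayed between 1.26 and 1.82 when 1 library at a time was left out, the lowest without HSA-NRTN 4 and the highest without wild-type 4. The authors' deposited table gives Anxa4 a log2 fold change of 1.19 (standard error 0.32) and an adjusted p of 0.0249, and 1.05% of the 14778 genes with an adjusted p in that table lie under 0.05. DESeq2 on the same genes as the edgeR fit placed Anxa4 under 0.05, with 0.53% of genes called. The edgeR fit without a filter on low counts did so with 0.311% of 26070 genes called. In the other settings run Anxa4 was not called. All of these calls use the libraries and the contrast that were known when the genes were chosen, so they carry no support.

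The coefficient of variation of Anxa4 was 65.0% over all 10 libraries, which includes the difference between genotypes. Within wild-type libraries it was 53.3%, above those of the other 4 tested members. That value includes wild-type 4 at 110 CPM, where the next highest wild-type library had 52.4 CPM. Within HSA-NRTN libraries the coefficient of Anxa4 was 39.5%, below those of Anxa2 (45.4%) and Anxa5 (43.4%). Among females the mean of Anxa4 was 142 CPM in HSA-NRTN and 65.1 CPM in wild-type mice, and among males 175 against 44.5 CPM. The fitted log2 fold change was 1.14 (SE 0.52) in females and 1.96 (SE 0.44) in males.

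Anxa5 encodes the annexin used as a probe of exposed phosphatidylserine and is an abundant soluble protein that can form a lattice on damaged membranes (ENSMUSG00000027712, chromosome 3, 36448923 to 36475894, minus strand). HSA-NRTN replicates 1 to 5 had 357, 140, 270, 537 and 403 CPM of Anxa5. Wild-type replicates 1 to 5 had 157, 145, 191, 296 and 229 CPM. HSA-NRTN 1, 4 and 5 exceeded every wild-type library, whereas HSA-NRTN 2 was lower than all of them. Means were 341 ± 148 against 204 ± 61.2 CPM (n = 5 each), and the log2 fold change was 0.75 (SE 0.32). It ran from 0.52 without HSA-NRTN 4 to 0.94 without HSA-NRTN 2, and was 0.93 (SE 0.34) in females and 0.41 (SE 0.50) in males.

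Anxa2 encodes a subunit of the heterotetramer with S100A10 that links membranes to actin (ENSMUSG00000032231, chromosome 9, 69453620 to 69491795, plus strand). It measured 648, 233, 384, 685 and 304 CPM in HSA-NRTN replicates 1 to 5. In wild-type replicates 1 to 5 it measured 184, 238, 343, 511 and 277 CPM. HSA-NRTN 1 and 4 lay above every wild-type library and the other 3 among them. Means were 451 ± 205 against 311 ± 126 CPM (n = 5 each), with a log2 fold change of 0.54 (SE 0.33) that ran from 0.33 without HSA-NRTN 4 to 0.79 without wild-type 4.

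Anxa6 is the annexin with a duplicated core and is known from cholesterol handling and cortical membranes (ENSMUSG00000018340, chromosome 11, 54979108 to 55033445, minus strand). Its level was 752, 360, 595, 917 and 637 CPM in HSA-NRTN replicates 1 to 5. It was 917, 692, 695, 925 and 587 CPM in wild-type replicates 1 to 5. The groups overlapped except for HSA-NRTN 2, which was lower than every other library. Anxa6 was the single tested member with a lower mean in HSA-NRTN, 652 ± 205 against 763 ± 151 CPM (n = 5 each), and its log2 fold change was -0.23 (SE 0.25). Without HSA-NRTN 2 the value was -0.08.

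Anxa7, also called synexin, aggregates and fuses secretory granules in the presence of calcium (ENSMUSG00000021814, chromosome 14, 20455260 to 20480133, minus strand). It measured 240, 173, 186, 201 and 187 CPM in HSA-NRTN replicates 1 to 5. Wild-type replicates 1 to 5 had 174, 220, 158, 220 and 136 CPM. Its coefficient of variation was 13.2% within HSA-NRTN libraries, against 31.4% for Anxa6, and 20.8% within wild-type libraries, close to the 19.7% of Anxa6. Means were 197 ± 26.0 against 182 ± 37.8 CPM (n = 5 each), and the log2 fold change was 0.12 (SE 0.21). It ran from 0.03 without wild-type 5 to 0.21 without wild-type 2.

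**Figure D2:**
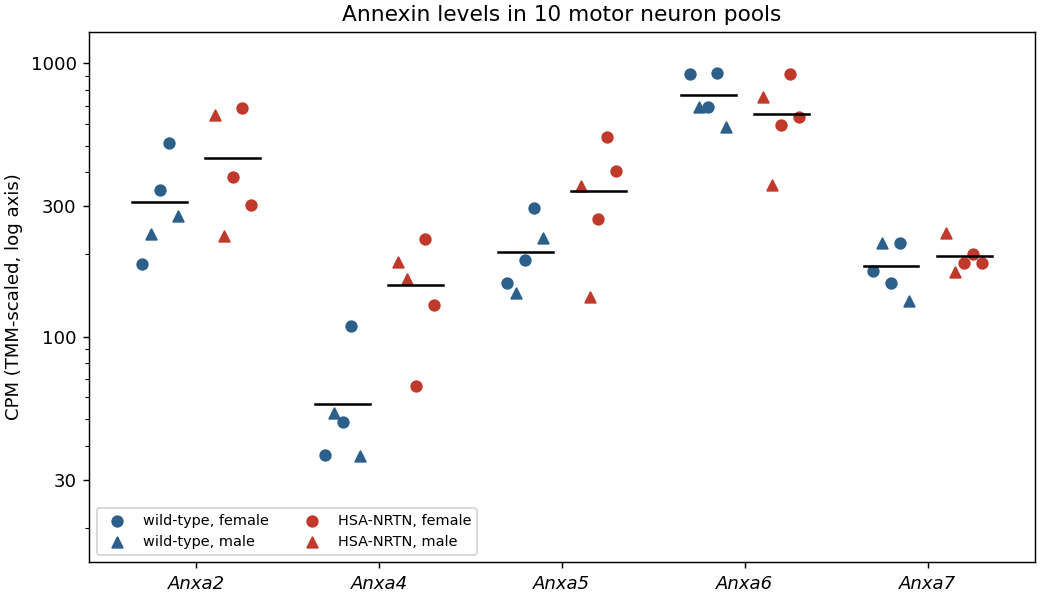
CPM of each tested annexin in every library on a log axis, wild-type in blue and HSA-NRTN in red, females as circles and males as triangles, with a black line at the mean. The Anxa4 groups meet only where wild-type 4 (110 CPM) lies above HSA-NRTN 3 (65.9 CPM), while Anxa6 and Anxa7 overlap widely.

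No member separated the genotypes completely. Over all tested genes 1.25% had genotype groups that did not overlap in CPM, 0.645% with HSA-NRTN higher. The animal numbers in the labels fall into 2 consecutive runs. With the run as a covariate the log2 fold changes were 0.76 for Anxa2, 1.66 for Anxa4, 0.97 for Anxa5, -0.19 for Anxa6 and 0.12 for Anxa7. The labels do not say that these runs are batches.

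Levels of several members went together with properties of the libraries. The deepest library of each genotype had the highest CPM in that genotype for 4 of 5 members among HSA-NRTN libraries, with Anxa7 the exception, and for 5 of 5 among wild-type libraries. The next deepest libraries went the other way for some members. Wild-type 5, with 5243863 gene counts, had the lowest wild-type Anxa4, Anxa6 and Anxa7. HSA-NRTN 3, with 5210310, had the lowest HSA-NRTN Anxa4. HSA-NRTN 2, with the fewest gene counts and the highest astrocyte and oligodendrocyte marker sums, had the lowest Anxa2, Anxa5, Anxa6 and Anxa7 of its group. Mitochondrial genes took 11.9% of its gene counts and 12.9% in wild-type 1, which had the lowest wild-type Anxa2 but an Anxa6 near the top of its group. They took the smallest share, 4.15%, in HSA-NRTN 4, the HSA-NRTN library with the highest Anxa2, Anxa4, Anxa5 and Anxa6. The mural cell marker sum was 78.9 CPM in HSA-NRTN 2, the highest of all libraries, and 5.42 CPM in HSA-NRTN 4, the lowest of its genotype. Wild-type libraries had 0.198 to 11.2 CPM. Most of the highest mural sum came from Rgs5 (up to 71.9 CPM), and the next highest mural marker, Acta2, reached 6.54 CPM. Wild-type 4, with the highest wild-type level of all 5 members, also had the highest summed fibroblast and meninges markers at 357 CPM, nearly all of it from Dcn (up to 345 CPM), where HSA-NRTN libraries had 0.986 to 57.6 CPM. Wild-type 2 had nearly as high a sum, 296 CPM, with the lowest wild-type Anxa5 and an Anxa2 below the wild-type median. Endothelial marker sums were 4.68 to 13.05 and 1.03 to 8.92 CPM, microglial sums 1.48 to 10.8 and 2.18 to 15.01 CPM, and interneuron sums 43.8 to 249 and 5.16 to 373 CPM in HSA-NRTN and wild-type libraries. No marker was at 0 over all libraries, but Cldn5 and Col3a1 had 1 count each and Col1a1 had 3. The part of depth, of the mitochondrial share and of these cells in the annexin values was not tested.

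Sex was not used to choose the genes, and its test is reported with genotype in the model. The edgeR quasi-likelihood fit called 1 of 11630 genes by sex (0.0086%) and 0 of the 5 annexins. Anxa2 ranged from 184 to 685 CPM in the 6 females (median 364) and from 233 to 648 CPM in the 4 males (median 258), a log2 difference, male minus female, of -0.24 (SE 0.34, adjusted p = 0.828). Anxa5 ranged from 157 to 537 CPM in females (median 283) and from 140.0 to 357 CPM in males (median 187), a difference of -0.44 (SE 0.31, adjusted p = 0.624). Anxa6 had medians of 806 CPM in females and 640 CPM in males, and a difference of -0.38 (SE 0.24, adjusted p = 0.567). Without HSA-NRTN 1 these differences were -0.66, -0.68 and -0.64, and without HSA-NRTN 2 they were -0.04, -0.19 and -0.21, for Anxa2, Anxa5 and Anxa6 in that order. The ranges of females and males overlapped for these genes, and for 0 of the 5 annexins did they lie apart, which they did for 2.27% of all tested genes. The differences were -0.11 (SE 0.38, adjusted p = 0.944) for Anxa4 and 0.03 (SE 0.22, adjusted p = 0.973) for Anxa7. The value of Anxa4 turned positive without HSA-NRTN 4 (0.09), wild-type 4 (0.19) or wild-type 5 (0.06). That of Anxa7 turned negative without HSA-NRTN 1 (-0.11), wild-type 2 (-0.13), wild-type 1 (-0.0039) or wild-type 3 (-0.013). The 95% intervals reached from -0.85 to 0.64 for Anxa4 and from -0.40 to 0.46 for Anxa7, so that differences of this size were not excluded by the fit.

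The genotype by sex interaction asks whether the genotype difference itself differed between males and females. The edgeR test called 0 of 11630 genes, with 598 at an unadjusted p under 0.05, and 0 of the 5 annexins. For Anxa4 the term, male minus female, was 0.85 (SE 0.74, adjusted p = 0.934), with a 95% interval from -0.61 to 2.31. For Anxa5 it was -0.49 (SE 0.62, adjusted p = 0.954). The terms of Anxa2, Anxa6 and Anxa7 were 0.37, 0.04 and 0.16, with adjusted p-values of 0.972, 0.999 and 0.981. Single libraries set the sign of several terms. Without HSA-NRTN 1 the term was -0.61 for Anxa2, -1.38 for Anxa5 and -0.65 for Anxa6, and without HSA-NRTN 2 it was 0.93, 0.02 and 0.47. For Anxa7 it ran from -0.19 without wild-type 5 to 0.54 without wild-type 2. For Anxa4 it stayed positive, from 0.24 without wild-type 4 to 1.38 without HSA-NRTN 4. With 2 males per genotype these intervals are wide, and DESeq2 called 8 genes in the same comparison, none of them a tested annexin.

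**Figure D3:**
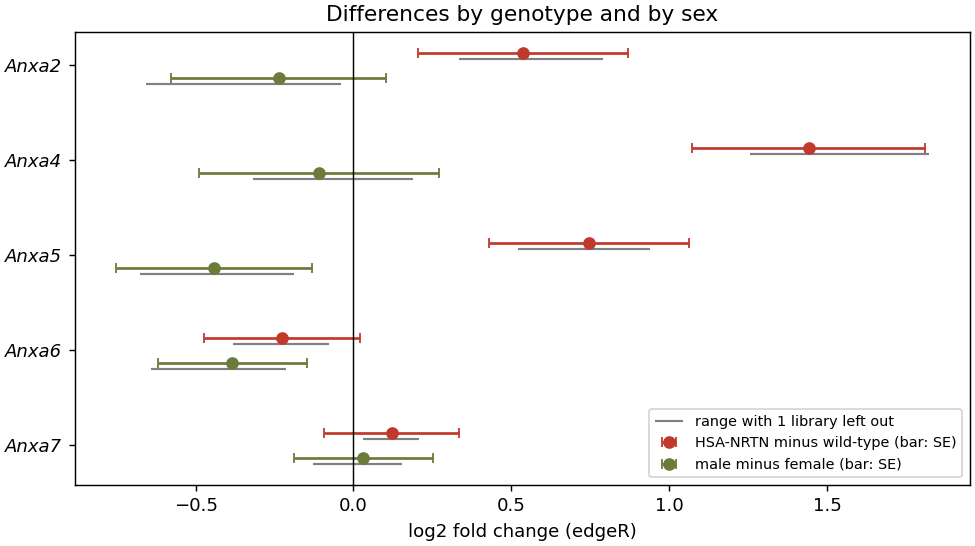
Log2 fold changes of the tested annexins by genotype (red, HSA-NRTN minus wild-type) and by sex (green, male minus female), with bars for the SE and grey lines for the range with 1 library left out. Anxa4 by genotype is at 1.44, with a range from 1.26 to 1.82, and the ranges of Anxa4 and Anxa7 by sex cross 0.

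Variation within genotypes was compared between members. The mean of each genotype was removed from log2(CPM + 1), and all 10 pairs of the 5 tested members then had a positive Pearson r over the 10 libraries, although none passed 0.05 after Benjamini-Hochberg adjustment over the 10 pairs. Anxa2 and Anxa5 had r = 0.78 (permutation p = 0.00685, adjusted p = 0.0584) and Spearman's rho = 0.75 (permutation p = 0.0168, adjusted p = 0.153). Without the 2 libraries farthest from the median of Anxa2, HSA-NRTN 4 and wild-type 4, their r was 0.61. Anxa5 and Anxa6 had r = 0.76 (permutation p = 0.0117, adjusted p = 0.0584) and rho = 0.65 (permutation p = 0.0491, adjusted p = 0.153), and this relation rested on HSA-NRTN 2 and HSA-NRTN 4, without which r was 0.22. Anxa2 and Anxa4 had r = 0.60 (permutation p = 0.0675, adjusted p = 0.162) and rho = 0.53 (permutation p = 0.124, adjusted p = 0.207), with r = 0.18 without HSA-NRTN 4 and wild-type 4. The weakest pair was Anxa5 with Anxa7 at r = 0.22.

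Single libraries moved these counts. Without wild-type 1, 3 pairs passed 0.05: Anxa2 with Anxa6 (r = 0.88), Anxa5 with Anxa6 (r = 0.87) and Anxa2 with Anxa5 (r = 0.77). Without wild-type 5, 2 pairs passed, Anxa5 with Anxa6 (r = 0.87) and Anxa2 with Anxa5 (r = 0.79). Without HSA-NRTN 5, 1 pair passed, Anxa2 with Anxa5 (r = 0.91).

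**Figure D4:**
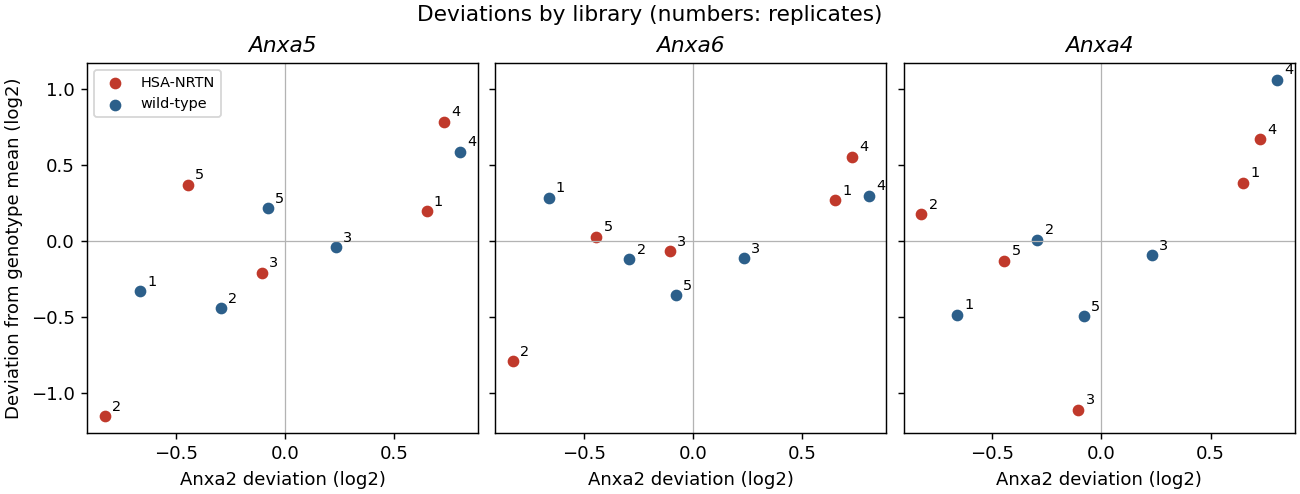
Deviation of log2(CPM + 1) from the genotype mean in each library for Anxa5, Anxa6 and Anxa4 against Anxa2, HSA-NRTN in red and wild-type in blue, numbered by replicate. HSA-NRTN 4 and wild-type 4 lie at the upper right of all panels, and HSA-NRTN 2 at the lower left for Anxa5 and Anxa6 but not for Anxa4.

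The genes whose log2(CPM + 1) followed each member most closely, with genotype means removed, were found among 11629 others over the 10 libraries, which share their depth with the members. The r values are descriptions. Anxa2 was closest to Eif2b3 (r = 0.98), a subunit of the exchange factor of translation initiation, to Cnih2 (0.97), an AMPA receptor auxiliary protein, and to Ap1m1 (0.96), an adaptor subunit of clathrin coats. Anxa4 had no gene above 0.9 and was closest to Il13ra1 (0.89), Stmn1 (0.88), which destabilises microtubules, and Ngef (0.88). Anxa5 was closest to Calu (0.96), a calcium-binding protein of the secretory pathway, Akr1a1 (0.95) and Adat1 (0.94). Anxa6 was closest to Snx32 (0.97), Gm1840 (0.96) and Vdac2 (0.94), a channel of the outer mitochondrial membrane. Anxa7 was closest to Igf2r (0.94), the mannose 6-phosphate receptor, Tbc1d9b (0.93) and Tmem132e (0.92). No gene stood in the list of more than 1 member.

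Anxa1, Anxa3 and Anxa11 gave almost no counts. Anxa1, the glucocorticoid-induced annexin that signals through formyl peptide receptors (chromosome 19, 20373428 to 20390944, minus strand), had 0 counts in 10 of 10 libraries. A limit of 3 counts over all libraries corresponds to 0.0670 CPM. Anxa3 (chromosome 5, 96793339 to 96845966, plus strand) had 8 counts, 2 in wild-type 1, 4 in wild-type 5 and 2 in HSA-NRTN 4. Anxa11 (chromosome 14, 25842156 to 25886804, plus strand) had 1 count, in HSA-NRTN 4. Of its exonic runs of 50 bases, 16.2% were also found in Anxa11os, Gm2260 or Gm2274, and these 3 genes had 0 counts too. Of its exon bases, 2.73% overlapped those of another gene. Whether Anxa11 RNA was scarce or its reads were not assigned was not tested. The annotation release and the settings of the counter are not known, and no level is given for Anxa11. Among the tested members such sharing with other genes was 1.37% for Anxa4, 1.35% for Anxa2 and 0 for Anxa5, Anxa6 and Anxa7, and the lowest count of a tested member in any library was 161.

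Of the other annexins in the files, Anxa8 and Anxa13 had 0 counts. Anxa9, which shares 7.96% of its exon bases with other genes, had 45 counts, 42 of them in HSA-NRTN 2, 2 in HSA-NRTN 1 and 1 in HSA-NRTN 4. Anxa10 had 215 counts, 165 in HSA-NRTN 4, 39 in HSA-NRTN 3 and 11 in wild-type 1, and 0 in the other 7 libraries. Both lay below the filter, and their counts come mostly from 1 library each.

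Partners and related genes of the annexins were described from lists, none of whose members passed the edgeR test of genotype, sex or interaction. Of 8 S100 proteins, a family in which some members bind annexin N-termini, 5 were tested. Of these, 3 had a positive and 2 a negative genotype log2 fold change (median 0.25). S100a10, the light chain of the annexin A2 complex, had 1109 ± 218 CPM in HSA-NRTN and 1206 ± 267 CPM in wild-type libraries, a log2 fold change of -0.12 (SE 0.22). S100b, a calcium-binding protein also made by glia, had 677 ± 139.6 and 695 ± 207 CPM, a log2 fold change of -0.04 (SE 0.24). Per kb of exon S100a10 exceeded Anxa2 in 10 of 10 libraries, by a ratio with a median of 11.1 that ran from 4.99 in HSA-NRTN 4 to 15.3 in wild-type 1. These are the libraries with the highest and the lowest Anxa2.

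The receptor side of annexin A1 was as sparse as its ligand. Fpr1 had 0 counts and Fpr2 had 1. Of the 5 genes of this list 3 were tested, 1 with a positive and 2 with a negative genotype log2 fold change (median -0.05). The glucocorticoid target Tsc22d3 had 276 ± 90.0 and 289 ± 29.2 CPM in HSA-NRTN and wild-type libraries (log2 fold change -0.07, SE 0.24), and the glucocorticoid receptor Nr3c1 64.8 ± 26.8 and 38.9 ± 20.7 CPM (0.73, SE 0.43).

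Plasminogen activation, to which the annexin A2 complex contributes at the cell surface, had 4 of 7 genes tested, 2 in each direction (median -0.09). Its leading genes per kb were Plgrkt, a plasminogen receptor, with a log2 fold change of 0.01 (SE 0.46), and Plat, the tissue plasminogen activator, with -0.19 (SE 0.61). Of 16 genes of membrane repair 11 were tested, 2 positive and 9 negative (median -0.10). The highest per kb were Capns1, the small calpain subunit, with a log2 fold change of -0.10 (SE 0.20), and the ESCRT-III subunit Chmp4b with -0.12 (SE 0.40). The 7 partners of annexins A7 and A11 gave 6 tested genes, 3 in each direction (median 0.02). Pdcd6, a penta-EF-hand protein that binds both annexins, had 283 ± 134 and 275 ± 93.3 CPM in HSA-NRTN and wild-type libraries (log2 fold change 0.04, SE 0.33), and a sex difference of -0.96 (SE 0.24) that did not pass the edgeR test (adjusted p = 0.359). Its relative Pef1 had a genotype log2 fold change of 0.13 (SE 0.25).

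The copines, another family of calcium-dependent phospholipid-binding proteins, had 6 of 9 genes tested, 2 positive and 4 negative (median -0.15). Cpne6 had the highest level per kb, with 311 ± 42.2 CPM in HSA-NRTN and 347 ± 58.1 CPM in wild-type libraries (log2 fold change -0.15, SE 0.20), followed by Cpne3 at -0.44 (SE 0.40).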

How the data were processed

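Libraries were made with Smart-seq2 and Tn5, per the labels' protocols. The kit amplifies whole transcripts by PCR, carries no molecular identifiers and is blind to strand. The authors used STAR 2.5.0a for alignment and HTSeq for counting, with GRCm38.p6 as the build, per the submitters' processing notes. Neither the annotation release nor the settings of the counter are known from the sources used here. The deposited files of raw counts hold 51912 genes. Another 92 rows for spike-ins and 5 tally rows, which stand for no gene, stayed out of library sizes and tests. Gene counts per library were 1875971 to 6641695, and tally rows held 57.6% to 86.5% of all entries in the files. The authors' deposited expression table holds a signal, counts divided by a size factor per library, for features with at least 11 counts. The authors' deposited comparison table, made with DESeq2 per the submitters' processing notes, gives log2 fold changes, a score (the test statistic), raw p-values and adjusted p-values.

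Counts were fitted in R 4.3.3 by edgeR 4.0.16 (quasi-likelihood test) after TMM scaling and filterByExpr, which kept 11630 genes. The genotype fit had no covariate, the sex fit included genotype, and the interaction fit included genotype and sex. Benjamini-Hochberg adjustment ran over all genes tested, with calls under 0.05. The common biological coefficient of variation came to 0.595. Pairs were tested two-sided with 100000 permutations. Replicate numbers are accession order only and pair no animals. The edgeR tests of genotype, sex and interaction were checked on simulated counts. DESeq2 1.42.0, limma voom (3.58.1), other scalings and filters, single libraries left out and added covariates were the alternatives. Lengths, coordinates and coding sequences came from GENCODE M21, which held 51633 of the gene identifiers. The genes and lists were chosen with earlier results of these data known. The genes named were all members, for each member with a mean of at least 10 CPM the 3 tested genes most correlated with it at any level, and the leading pair per kb of each list. Fpr1, Fpr2 and marker genes were named after their values were seen.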

Additional observations from a re-analysis of the deposited data

Results flagged for a closer look

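Anxa4 in wild-type 4 measured 110 CPM, far from the other wild-type libraries, of which the next highest had 52.4 CPM. The gap, taken on CPM and not on a log scale, was 0.785 of the range of the group, above the critical value of 0.71 for 5 samples. The flag is given for that scale only. Chance alone sets apart about 1 group in 20, and 10 groups were screened. Without this library the log2 fold change of Anxa4 by genotype was 1.82, against 1.44 with it.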

How the results depend on the processing

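The genotype log2 fold changes of Anxa2, Anxa4, Anxa5 and Anxa7 were positive, and that of Anxa6 negative, in all 23 values computed for each. All these values come from the same 10 libraries. Anxa6 ran from -0.38 to -0.0013, the latter without both HSA-NRTN 2 and wild-type 1. Anxa4 ran from 1.14 to 1.96, with 1.82 without wild-type 4 and 1.96 in males only, and Anxa5 was 0.41 in males only. The count of genes called by genotype, 1 with edgeR, was 59 with DESeq2, 3 with limma voom, 81 without a filter, 0 with the run of animal numbers (706 at an unadjusted p under 0.05) and 5 with sex as a covariate, and 0 to 13 when each library was omitted in turn (13 without HSA-NRTN 3, 0 without wild-type 2 with 570 at an unadjusted p under 0.05). By sex it was 1, and 105 with DESeq2, 0 with limma voom (1206 at an unadjusted p under 0.05), 315 without a filter and 1 to 176 with 1 library left out (176 without wild-type 1). For the interaction it was 0, and 8 with DESeq2, 35 without a filter and 0 to 0 with 1 library left out. Anxa4 by sex reversed to 0.069 with limma voom and 0.080 with the run as a covariate, and ran from -0.32 to 0.19 with 1 library left out. Anxa7 by sex ran from -0.13 to 0.15. Of the pairs of annexins 0 passed, and 1 with genotype means kept, 2 without both HSA-NRTN 2 and wild-type 1, and 0 to 3 with 1 library left out. The order per kb moved for 2 members with the longest transcript. The cause of these shifts was not tested. No paired analysis was possible because the groups share no animal number. Counts of 1 were worth 0.143 to 0.540 CPM, which limits Anxa1, Anxa3 and Anxa11 and not the tested members.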
